A study of Mus musculus with 8 samples.

Results

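Olfr90 to Olfr139 are a numbered run of mouse olfactory receptor genes, and all genes of the deposited table named Olfr with a number from 90 to 139 were taken, without use of any measured value. The rule gave 46 genes out of 22553 in the table and out of 1104 receptors named Olfr with a number, which leaves 1058 other receptors for comparison. Receptors numbered 100, 104, 105 and 106 were not analysed here, so 4 of the 50 numbers have no value. In RefSeq's GRCm38.p6 annotation, which is the mm10 build named for the data, 45 of the 46 genes lie on chromosome 17 between positions 37085191 and 38336097, a stretch of 1.25 Mb beside the major histocompatibility complex. Olfr139 lies alone on chromosome 11, from 74044325 to 74045272. Between the first and the last gene of the chromosome 17 stretch RefSeq places 3 protein genes that are not receptors, Ubd, H2-M3 and H2-M2, and 1 receptor from another number range, Olfr761.

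Ribosome profiling sequences the pieces of messenger RNA that ribosomes protect, called footprints, and a matched input library gives the RNA level. Cells of the mouse main olfactory epithelium were dissociated with papain and sorted by green fluorescence. Ngn1-GFP is a transgene that marks immediate neuronal progenitors and immature olfactory sensory neurons, and OMP-ires-GFP is a reporter in the gene of olfactory marker protein, which marks mature neurons. Control mice were Mex3a flox/flox or flox/+ without a Cre driver, and KO mice were Mex3a fl/fl with a Cre driver, so control and KO also differ in the presence of Cre. The genotype tag of the OMP-GFP KO mice reads OMP-ires-Cre where their description reads OMP-ires-GFP, and they were grouped by sample title. No treatment was given, and age, sex and pooling of mice are not given in the labels. The labels list 8 footprint libraries, 2 in each of 4 groups, but the table has 1 footprint column and 1 RNA column per group. No spread between mice can be computed, no p-value is given, and every interval covers counting error only. Where reads are PCR copies they are not independent molecules, and the intervals are then too narrow even for counting error.

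Each olfactory sensory neuron transcribes a single receptor gene from a single allele out of the whole repertoire, and the receptor protein in the cilia binds odorants and couples to the olfactory G protein. Immature neurons first express several receptors at low level before choice becomes stable. Receptor genes sit in clusters of related members, and the cluster by the major histocompatibility complex has been studied for its linkage to that complex. In sorted cells, fewer neurons choosing a receptor and less receptor RNA in each neuron cannot be told apart.

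The footprint columns held 4456989 counts for Ngn1-GFP control, 3031489 for Ngn1-GFP KO, 3576406 for OMP-GFP control and 4100841 for OMP-GFP KO, and lists of values below keep this order. RNA columns held 89327877, 27786809, 31855259 and 26946592 counts. Mex3a, the deleted RNA-binding protein gene, had 437, 28, 16 and 5 footprints and 9645, 656, 387 and 38 RNA reads, lower in KO than in control in both populations. All 6 markers of mature neurons were measured in every group, and in controls 5 of 5 precursor markers with enough footprints were lower in the OMP-GFP column. Only 2 of the 6 mature markers were called higher there. Their summed CPM (footprint counts scaled to a fixed column total) was 8849 in Ngn1-GFP control and 14333 in OMP-GFP control. Of 6 immature neuron markers 4 were called lower, but their summed CPM was 6133 and 5951. Markers of other cells moved with the comparisons. The 6 sustentacular (supporting cell) markers summed to 3917, 397, 130 and 405 CPM, and 6 of 6 were lower in Ngn1-GFP KO and 5 of 6 higher in OMP-GFP KO. The 6 gland markers summed to 282, 450, 55.2 and 501, and 1 of 6 was higher in Ngn1-GFP KO and 5 of 6 in OMP-GFP KO. Both red cell markers were higher in OMP-GFP KO (summed CPM 36.6, 35.3, 29.7 and 100.8 in footprints and 119.3, 21.3, 26.4 and 57.7 in RNA), and in RNA both were lower in Ngn1-GFP KO. Of the 4 immune markers, 3 had enough footprints in the Ngn1-GFP pair, 2 of them lower and 1 higher in KO, and the list summed to 20.9, 8.44, 10.9 and 14.3. No sustentacular or gland marker was at 0 across a whole comparison, and the part of these cells in the receptor results was not tested. In RNA, the Ngn1-GFP control column stood apart, with 375 genes at least 8-fold above every other column, of which 0 were among the 46 and 12 were other receptors. In footprints the same group also had the most such genes, 54 against 10, 0 and 5 in the other columns. Of those 54, 0 were among the 46 and 0 were other receptors. Comparisons with Ngn1-GFP control, in RNA or in footprints, cannot be given without its column.

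The 46 receptors held a smaller share of receptor footprints than of receptor RNA in every group. They made up 4.17% of the receptor genes. Their summed footprints were 960, 705, 989 and 1028, which is 2.59%, 2.58%, 2.87% and 2.64% of all receptor footprints. The exact 95% binomial intervals of these shares ran from 2.43% to 2.75%, 2.39% to 2.77%, 2.70% to 3.06% and 2.48% to 2.80%. These 4 intervals overlapped, which does not make the shares equal. From Ngn1-GFP to OMP-GFP control, the summed footprints of the 46 gave a log2 ratio of 0.58 (0.45 to 0.70). Other receptors gave 0.42 (0.40 to 0.44), below that interval. Without Olfr133 to Olfr136, picked after their values were seen, the other 42 gave 0.41 (0.27 to 0.54). These intervals hold only the counting error of a sum, while log2 ratios of single genes of the 46 had a standard deviation of 1.44. In RNA the sums were 15436, 3952, 5987 and 5609 reads, or 3.99%, 3.56%, 4.09% and 4.20% of receptor RNA. The RNA share of the Ngn1-GFP KO was the lowest of the 4.

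**Figure D1:**
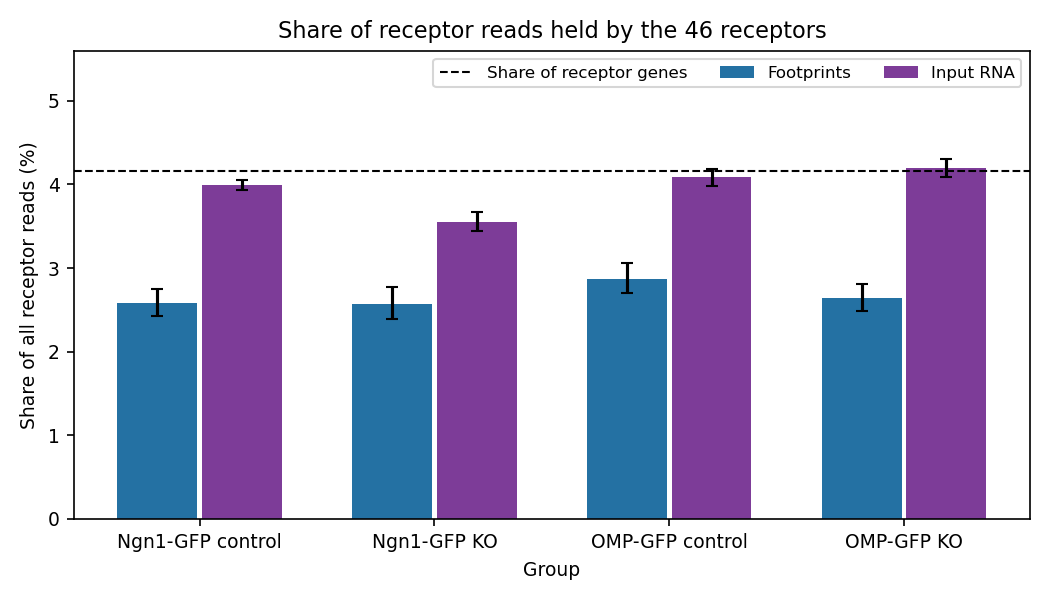
Share of all receptor reads held by the 46 receptors (%, bars starting at 0) in footprints and input RNA of the 4 groups, with exact 95% binomial intervals for counting error; the dashed line is their 4.17% share of receptor genes. Footprint bars lie between 2.58% and 2.87%, below the RNA bar of the same group each time.

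All 46 were detected in footprints in at least 1 column, and 13 (28.3%) were at 0 in at least 1. At least 1 footprint was found for 44, 37, 45 and 40 of the 46, or 95.7%, 80.4%, 97.8% and 87.0%, while 91.9%, 81.6%, 90.9% and 80.7% of other receptors had one. Thinned to 3031489 footprints, the depth of the shallowest column, the expected numbers were 43.6, 37, 44.8 and 38.9, so the KO numbers were below those of controls at equal depth too. At least 10 footprints were found for 31, 24, 31 and 27 of them. A footprint in all 4 columns was found for 33 of the 46 (71.7%) and for 68.8% of other receptors. None of the 46 was at 0 in all 4 columns, against 34 other receptors (3.21%). RNA reads were present in all 4 columns for all 46, between 6 and 1564 reads, and for 93.7% of other receptors. A column at 0 footprints still allows up to 0.673, 0.990, 0.839 and 0.732 CPM, the value of 3 counts.

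By coding length, the receptors were alike, between 918 and 1167 bases with a median of 942. The deposited footprint RPKM (footprints scaled by coding length and column total) had a median over the 46 of 3.52, 3.44, 4.37 and 3.61, against 4.61, 4.6, 5.31 and 4.47 over other receptors. The deposited RNA TPM (RNA reads scaled likewise, to a fixed total) had a median of 3.85, 3.42, 5.42 and 3.93, against 3.94, 3.71, 4.48 and 4.38. In typical level the 46 were thus below other receptors in footprints in all 4 columns and on either side of them in RNA. Their highest footprint level, 32.6 RPKM, was far below the highest of other receptors, 191.7 RPKM, in the same OMP-GFP control column.

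RefSeq's synonyms place 45 of the 46 in 8 families of the MOR nomenclature, which groups receptors by protein likeness. MOR256 has 17 genes, MOR218 has 9, MOR263 has 7, MOR156 has 5 and MOR250 has 4, with 1 gene each in MOR121, MOR249 and MOR255. Olfr111 has no MOR synonym there. What odorants most of these receptors bind is not given in the files, so they are described by family.

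Olfr109, of the MOR250 family, had the most footprints of the 46 in every column, with counts of 117, 86, 110 and 115. Its level was 27.8, 30.0, 32.6 and 29.7 RPKM, which makes it high in all 4 groups. Olfr103, also MOR250, had 47, 39, 25 and 28 footprints. The remaining pair of the family was lower. Olfr101 had 35, 9, 15 and 26 footprints and Olfr102 had 18, 8, 15 and 19.

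In MOR218, Olfr125 led with 53, 58, 73 and 79 footprints. Olfr116 followed with 38, 41, 24 and 40, and Olfr114 had 22, 19, 24 and 52. These 3 were found in every column. Olfr112, in contrast, had 12, 0, 2 and 0 footprints beside 523, 110, 126 and 96 RNA reads, and both its zeros were in KO columns.

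In MOR256, Olfr138 had 103, 33, 55 and 55 footprints, highest in Ngn1-GFP control. Olfr123 had 36, 29, 58 and 32, and Olfr133 had 10, 20, 51 and 59. Olfr90 ran the opposite way, with 47, 22, 10 and 7. Members of this one family therefore were not ordered alike across groups. Olfr124, also called MOR256-3 and known as SR1, a receptor of many septal organ neurons, had 15, 6, 5 and 12 footprints and 600, 86, 211 and 118 RNA reads. Olfr137 had the fewest RNA reads in sum over the columns, with 6, 10, 30 and 34, and 4, 0, 1 and 1 footprints.

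In MOR263, footprints summed over the columns were highest for Olfr122 (38, 28, 26 and 15) and Olfr119 (15, 21, 36 and 29), though Olfr95 led in OMP-GFP KO with 39. Olfr120 had 5, 0, 8 and 0 footprints beside 350, 109, 138 and 187 RNA reads, again with both zeros in KO columns. In MOR156, Olfr99 had 19, 10, 25 and 16 footprints, and Olfr108 was at 0 in all columns but Ngn1-GFP KO, where it had 5. Olfr139, the receptor on chromosome 11, had 20, 10, 60 and 39 footprints, more in both OMP-GFP columns than in both Ngn1-GFP columns.

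**Figure D2:**
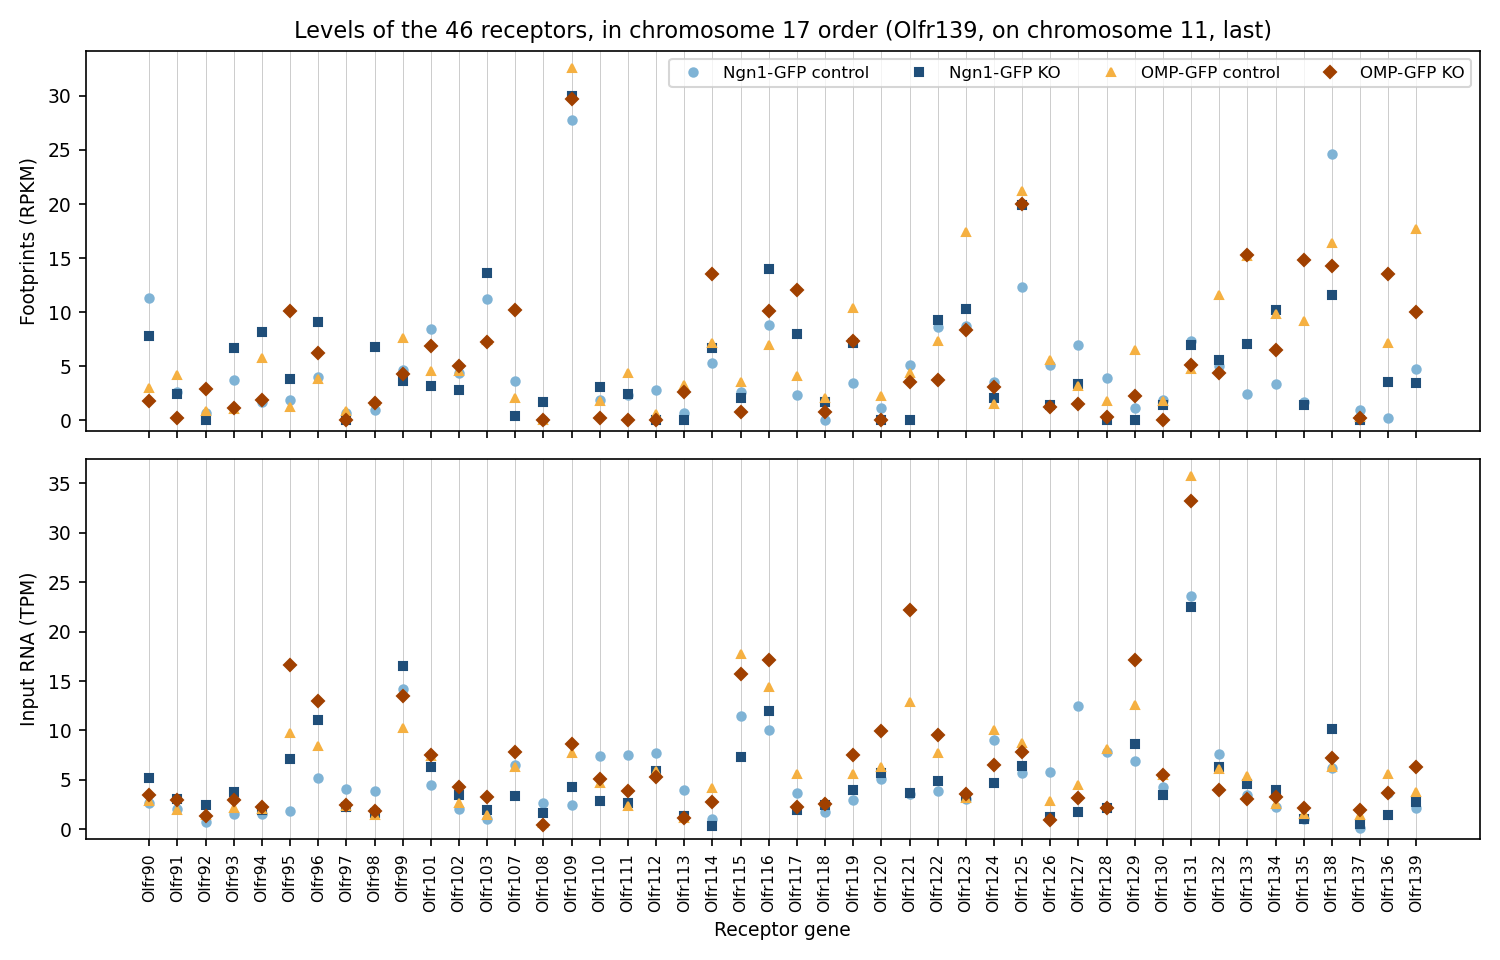
Deposited footprint level (RPKM, top) and input RNA level (TPM, bottom) of each of the 46 receptors in the 4 groups, 1 point per group and gene, in chromosome 17 order with Olfr139 last. Olfr109 leads in footprints with 27.8 to 32.6 RPKM, while Olfr131 leads in RNA with 22.5 to 35.7 TPM.

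The gene with the most RNA was not the gene with the most footprints. Olfr131, of MOR256, had 1564, 409, 747 and 597 RNA reads, the highest of the 46 in each column and 23.6, 22.5, 35.7 and 33.2 TPM. Its footprints were 31, 20, 16 and 20, a level of 7.36, 6.98, 4.73 and 5.16 RPKM. Across the 46 genes, the Spearman correlation of footprint RPKM with RNA TPM was 0.22, 0.31, 0.21 and 0.27. Across other receptors it was 0.58, 0.65, 0.68 and 0.66. Genes within a column are not independent replicates, and these values, which rest on small counts for many of the 46, are descriptions.

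Footprints per RNA read were computed as the ratio of scaled footprint to scaled RNA counts of a gene, a relative measure whose median over all genes was 0.93, 0.91, 0.89 and 0.84. The median over the 45 of the 46 with enough reads was 0.91, 1.52, 1.11 and 0.92, against 1.45, 1.87, 1.85 and 1.64 for other receptors. Summed over all 46 first, the ratio was 1.14, 1.63, 1.51 and 1.29, against 1.78, 2.27, 2.18 and 2.09. The 46 were below other receptors by both measures in all 4 groups, and among themselves they ran in Ngn1-GFP control from 0 to 13.4. A value below 1 was found for 23, 17, 19 and 23 of them.

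**Figure D3:**
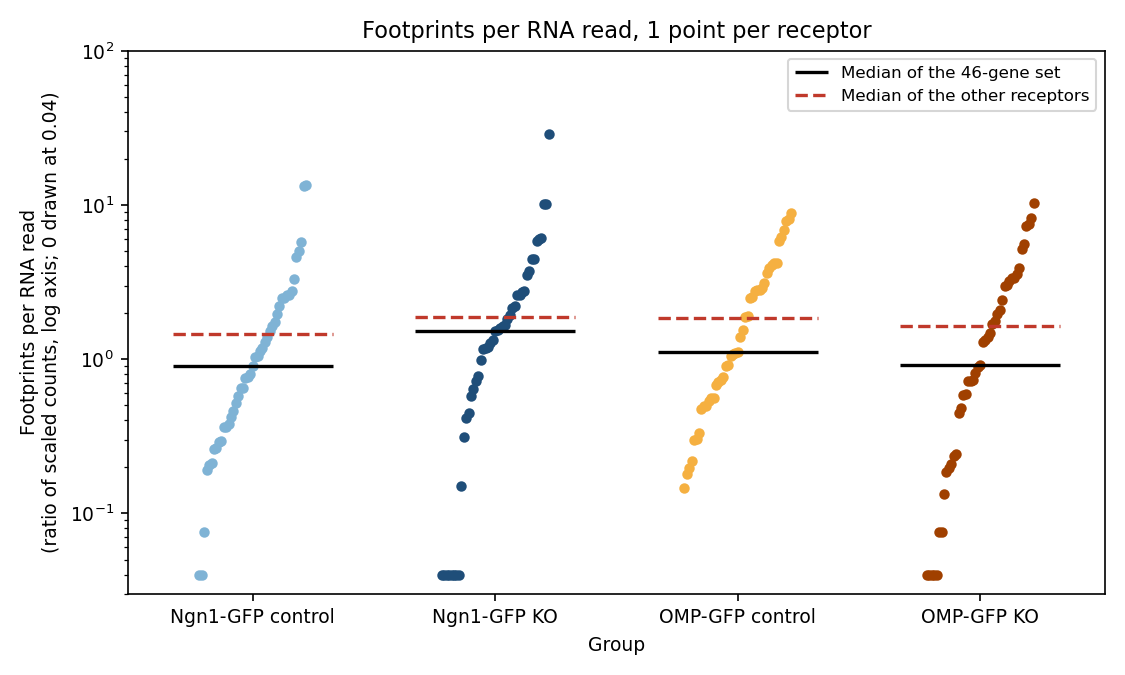
Footprints per RNA read (ratio of scaled counts, log axis) of each of the 46 receptors in the 4 groups, 1 point per gene in rising order, with 0 drawn at 0.04; solid lines are the median of the 46 and dashed lines that of other receptors. The solid line lies below the dashed line in all 4 groups (0.91 against 1.45 in Ngn1-GFP control).

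Among the 13 genes with at least 50 footprints and 50 RNA reads summed over both controls, Olfr103 and Olfr109 were highest, at 10.2 and 8.04 footprints per RNA read. Olfr116 and Olfr101 were lowest of these 13, at 0.85 and 1.43. The footprint minimum tends to remove genes of low ratio. The 1.43 lies above the medians of the 46 in Ngn1-GFP and OMP-GFP control, 0.91 and 1.11. Olfr109 stood at 13.4, 10.2, 6.22 and 5.19 in the 4 groups, and its 95% intervals in the controls, 10.6 to 17 and 4.88 to 7.92, did not overlap. Olfr103 stood at 13.2, 10.2, 7.89 and 3.34. Both were highest in Ngn1-GFP control. Olfr116 stood at 1.03, 1.68, 0.71 and 0.89, and Olfr131 at 0.36, 0.45, 0.20 and 0.24, low in every group. Olfr97, of MOR156, had 3, 0, 3 and 0 footprints beside 266, 40, 49 and 44 RNA reads. Olfr109 and Olfr103 are both MOR250 genes, as is Olfr101 at the low end of the 13 ranked genes.

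Ribosomes start on the ATG of a messenger RNA, so the genomic bases around it are shown for genes of high and of low footprints per RNA read. Whether the bases before the ATG are part of the messenger RNA was not tested. RefSeq's promoter windows, which run from 250 bases before a gene's start to 50 after it, were found for 36 of the 46. For 21 of these, the RefSeq gene begins with ATG and has the length of the deposited coding sequence, so its start is the start codon and an untranslated first exon is not annotated. Each line below gives 20 bases before the start codon and 10 from it on, 5′ to 3′, with the ATG in capitals. Olfr109 had high values in all groups and Olfr135 in OMP-GFP cells (8.87 in control, 10.3 in KO), Olfr131 and Olfr97 had low ones, and they were picked with these values in view.
Olfr109: atgttttcccctacctagtgATGgagaact
Olfr135: ggagaatcagattgcagagaATGatattgg
Olfr131: cagcaaactggatttcaacaATGagaaggc
Olfr97: cttcttgaaatacaatacccATGatgaact
In GRCm38.p6 these are chr17:37466188-37466217 and chr17:38208227-38208256 on the plus strand and chr17:38082967-38082996 and chr17:37232359-37232388 on the minus strand. With so few genes, no base was compared between high and low.

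For comparisons between groups, a gene needed 20 counts in the pair of columns, and it was called higher or lower when the columns were at least 2-fold apart after TMM scaling and the exact 95% counting interval of the ratio excluded 1. Where a column held 0, the value of 3 counts took its place in the ratio, while the interval was computed from the 0 itself. The fold then depends on that substitute value. Called describes these columns and makes no statement on mice.

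Comparison of Ngn1-GFP KO with its control asks what deletion of Mex3a does in progenitors and immature neurons. Of the 46, 27 had enough footprints, of which 7 were called higher, against 6.49% of all genes tested, and 4 lower, against 10.8%. With a minimum of 1 count 7 were lower. As shares of those tested these are 25.9% and 14.8%, and for other receptors they were 20.2% and 16.7%. The median log2 ratio was 0.23 for the 46 and 0.18 for other receptors. All 46 together gave a log2 ratio of 0.18 (95% counting interval 0.03 to 0.32), as did other receptors (0.16 to 0.21).

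Higher in the Ngn1-GFP KO were Olfr94, Olfr96, Olfr98, Olfr117, Olfr119, Olfr133 and Olfr134. Olfr98, a MOR156 gene, went from 4 footprints in control to 19 in KO, a log2 ratio of 2.87 (1.28 to 4.89). Olfr94, a MOR256 gene, went from 9 to 29, a log2 ratio of 2.31 (1.19 to 3.57). Both began from few counts. Olfr134, also MOR256, went from 14 to 29 (1.67, 0.71 to 2.71). Olfr117, another MOR256 gene, went from 10 to 23 (1.82, 0.70 to 3.06). The others had ratios of 1.24 for Olfr96, 1.11 for Olfr119 and 1.62 for Olfr133. Lower were Olfr101, Olfr121, Olfr126 and Olfr138. Olfr121, a MOR263 gene, went from 22 footprints to 0. With 3 counts in place of the 0 this is 4.76-fold lower, and the counting interval ends at a log2 ratio of -1.83. Olfr138 went from 103 to 33, a log2 ratio of -1.02 (-1.63 to -0.44). It was the one call with at least 100 counts, and lies at the 2-fold limit: with DESeq2 size factors its fold was just under 2 and the call was lost. Olfr126, a MOR218 gene, went from 22 to 4 (-1.84, -3.83 to -0.28). Olfr101 went from 35 to 9 (-1.34, -2.58 to -0.25).

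In RNA of the same comparison, 45 of the 46 had enough reads, of which 3 were called higher, against 4.4% of all genes, and 13 lower, against 11.9%. The 28.9% called lower stood beside 21.7% of other receptors, and the median log2 ratio was -0.08 against -0.20. Higher were Olfr92, Olfr93 and Olfr95, neighbours by number, with log2 ratios of 1.47, 1.03 and 1.69. Lower were Olfr97, Olfr98, Olfr107, Olfr110, Olfr111, Olfr113, Olfr114, Olfr117, Olfr124, Olfr126, Olfr127, Olfr128 and Olfr136. Olfr127 went furthest, from 848 to 33 reads, a log2 ratio of -3.05 (-3.60 to -2.55). By family, 5 of 9 MOR218 genes and 3 of 5 MOR156 genes were called lower, and 0 of 7 MOR263 genes. Olfr98 and Olfr117 were called lower in RNA and higher in footprints. Olfr126 was the 1 gene called lower in both, and 0 were called higher in both. The share of all genes called in both assays was not computed, so these counts are descriptions only. The Ngn1-GFP control RNA column that stood apart enters all of these RNA ratios, and its part in them was not tested.

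Comparison of OMP-GFP KO with its control asks the same of mature neurons. Of the 46, 28 had enough footprints, of which 3 were called higher, against 7.12% of all genes, and 4 lower, against 8.54%. DESeq2 size factors gave 5 higher, and a minimum of 1 count gave 9 lower. For other receptors 15.6% and 15.1% were called. The median log2 ratio of the 46 was -0.03, and their sum gave -0.06 (-0.19 to 0.06), against 0.06 (0.04 to 0.08) for other receptors. Olfr95, a MOR263 gene, went from 4 to 39 footprints, a log2 ratio of 3.17 (1.70 to 5.11). Olfr107, a MOR156 gene, went from 7 to 39 (2.36, 1.18 to 3.76), and Olfr117 from 14 to 47 (1.63, 0.74 to 2.60). All 3 had 39 or more footprints in the KO. Lower were Olfr94, from 24 to 9 (-1.54, -2.83 to -0.38), Olfr126, from 19 to 5 (-2.05, -3.82 to -0.58), Olfr129, from 23 to 9 (-1.47, -2.77 to -0.31), and Olfr132, from 39 to 17 (-1.32, -2.23 to -0.46).

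In RNA of the OMP-GFP cells all 46 had enough reads, of which 1 was called higher, against 4.4% of all genes, and 3 lower, against 3.89%. Other receptors were called at 9.91% and 9.60%. Olfr103 was higher, from 29 to 59 reads (1.28, 0.62 to 1.98). Olfr117, Olfr126 and Olfr128 were lower, with log2 ratios of -1.31, -1.56 and -1.87. RNA of the 46 differed less between these columns than in Ngn1-GFP cells, with a standard deviation of log2 ratios over genes of 0.64 here and 1.05 there.

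**Figure D4:**
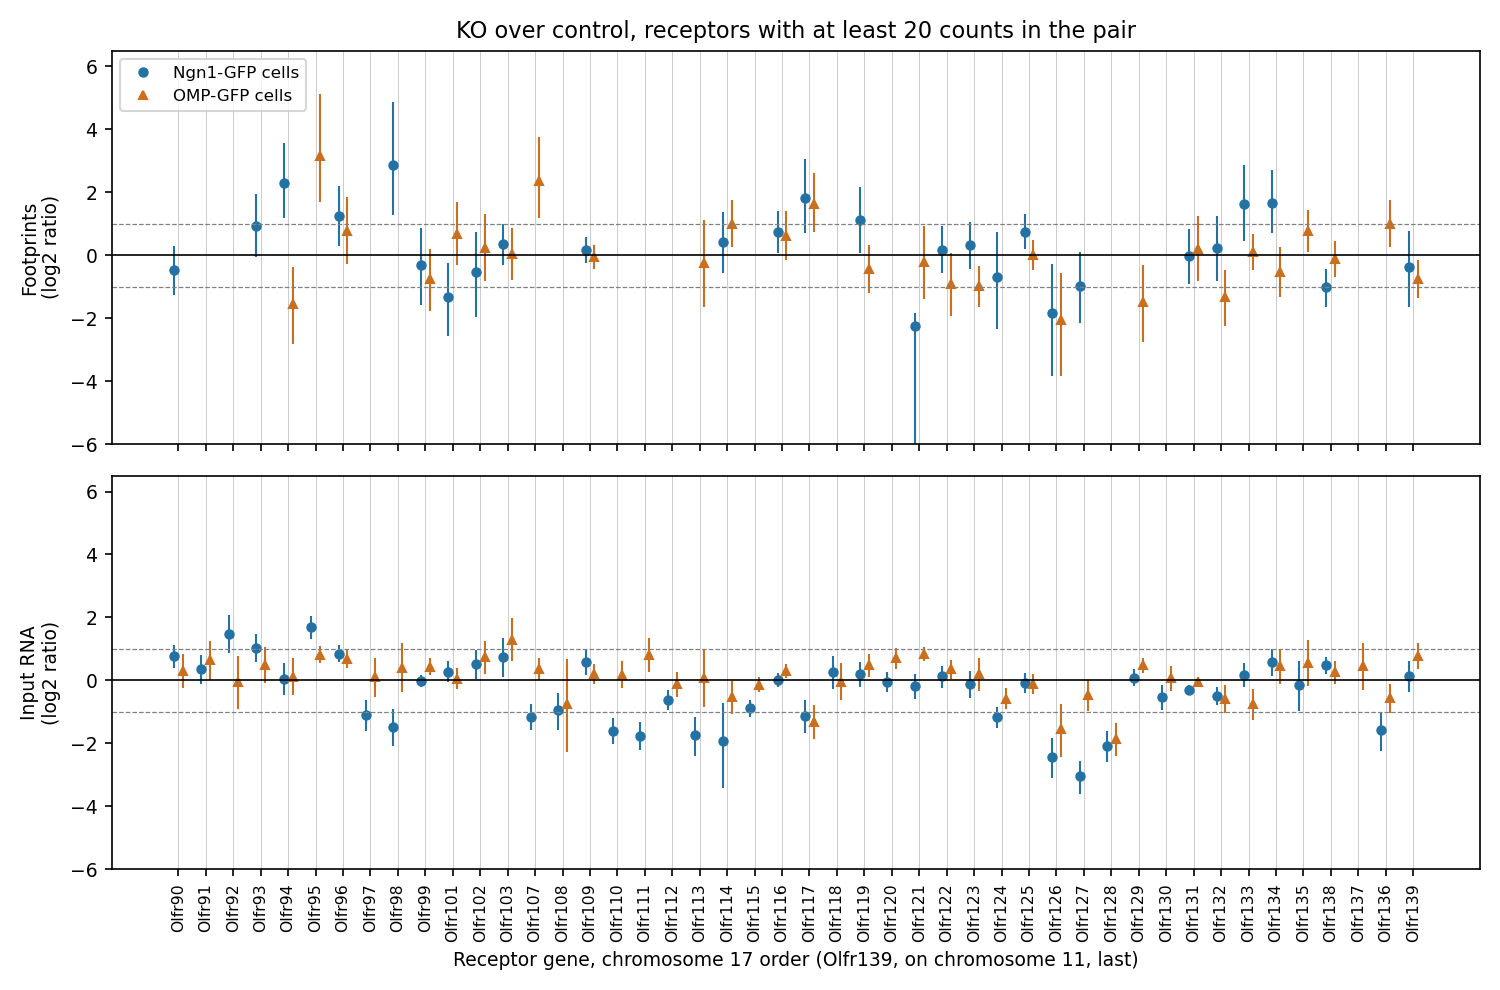
Log2 ratio of KO over control in footprints (top) and input RNA (bottom) for receptors with at least 20 counts in the pair, in Ngn1-GFP cells (circles) and OMP-GFP cells (triangles); lines are exact 95% counting intervals, drawn only to the frame, and dashed lines mark 2-fold. Olfr126 lies below the lower dashed line in both cell populations in both panels, and Olfr117 lies above the upper line in footprints and below the lower line in RNA.

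The KO comparisons of both populations share no column, so their calls can be set side by side. Of the 22 genes with enough footprints in both, Olfr117 was called higher in both, out of 6 in Ngn1-GFP and 1 in OMP-GFP cells. Olfr126 was called lower in both, out of 4 and 3. Each is 4.55% of the 22, beside 4.67% of other receptors called higher in both and 4.67% lower in both, and 0.839% and 1.45% of all genes tested in both. In RNA, of 45 genes tested in both, Olfr117, Olfr126 and Olfr128 were called lower in both, all 3 of those in OMP-GFP cells and 3 of 13 in Ngn1-GFP cells. This is 6.67% of the 45, beside 5.58% of other receptors and 1.04% of all genes.

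Olfr117 had footprints and RNA that ran in opposite directions. Its footprints were 10, 23, 14 and 47, higher in KO in both populations. Its RNA reads were 242, 36, 119 and 40, with log2 ratios of -1.12 (-1.67 to -0.61) and -1.31 (-1.87 to -0.79). Its footprints per RNA read were accordingly 0.76, 5.82, 1.08 and 8.27, and the intervals of control and KO did not overlap in either population (0.40 to 1.42 against 3.45 to 9.82, and 0.62 to 1.87 against 5.43 to 12.6). How far libraries of a group differ for this gene could not be seen.

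Olfr126, Olfr127 and Olfr128 are consecutive on chromosome 17, all of MOR218, and were low in KO together. This stretch was picked after its values were seen and has no test. Olfr126 had 22, 4, 19 and 5 footprints and 386, 23, 60 and 17 RNA reads. Olfr127 had 30, 10, 11 and 6 footprints, with a log2 ratio of -0.96 in Ngn1-GFP cells that was not called and too few to test in OMP-GFP cells, and 848, 33, 96 and 58 RNA reads. Olfr128 had 16, 0, 6 and 1 footprints, too few to test, and 510, 39, 166 and 38 RNA reads. Every one of these raw counts was lower in KO than in control, but the Ngn1-GFP RNA columns held 89327877 and 27786809 counts. After scaling, Olfr126, Olfr127 and Olfr128 were called lower in Ngn1-GFP RNA. In OMP-GFP RNA Olfr126 and Olfr128 were called lower, and Olfr127 was not (-0.47, -0.96 to 0.02). Summed over the 3 genes, footprints gave a log2 ratio of -1.66 (-2.60 to -0.81) in Ngn1-GFP and -1.71 (-2.78 to -0.73) in OMP-GFP cells. RNA gave -2.57 (-2.88 to -2.27) and -1.25 (-1.57 to -0.94). The other 6 MOR218 genes together gave footprint ratios of 0.46 (0.10 to 0.82) and 0.21 (-0.11 to 0.54), and RNA ratios of -0.49 (-0.62 to -0.37) and -0.02 (-0.15 to 0.11). Without the 3 genes, the other 43 receptors gave summed footprint ratios of 0.25 (0.11 to 0.40) and -0.03 (-0.16 to 0.10).

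Olfr127 and Olfr128 have similar windows, 86.3% identical over the RefSeq promoter window, of which 250 bases lie before the start. Reads were counted over coding sequences, whose likeness was not measured, and whether the counting split reads between these genes was not tested. Their bases from 110 before the start codon to the 10 from it on are shown as a pair of similar windows. Capitals mark the ATG and each match to TATAAA on either strand (TTTATA on the printed strand).
Olfr127: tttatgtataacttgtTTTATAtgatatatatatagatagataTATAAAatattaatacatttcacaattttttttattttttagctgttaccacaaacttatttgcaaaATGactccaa
Olfr128: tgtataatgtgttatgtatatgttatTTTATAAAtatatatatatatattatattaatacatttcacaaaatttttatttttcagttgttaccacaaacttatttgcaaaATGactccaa
These are chr17:37903438-37903557 and chr17:37923458-37923577 of GRCm38.p6, plus strand. The bases lie before the annotated start, but where transcription begins was not measured. Olfr126 has no window with an ATG at its start and is not shown.

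TATAAA was found on either strand in 25% of the 36 windows, in 41.1% of the 934 windows of all receptors and in 13.6% of all 32851 windows of the same 300 bases. TAATTA, the core read by homeodomain proteins such as Lhx2, was found in 11.1%, 18.7% and 5.29%. CCCNNGGG, a core read by Ebf proteins, was found in 13.9%, 3% and 13.7%. The 13.9% is only 5 windows. In Olfr93 and Olfr96 the match lies after the start, and Olfr98 and Olfr99 have windows 85.7% identical. These are matches of letters in a window and no measure of binding. Windows are placed by the annotated gene start, which for 23 of the 36 is an ATG. Such windows may not lie where transcription begins, so the shares over all windows may come from unlike regions. Of 630 pairs of windows among the 36, 14 were at least 75% identical, and all 14 were of genes in the same family.

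Comparison of OMP-GFP with Ngn1-GFP cells asks how receptors differ between mature and immature cells. In controls, 34 of the 46 had enough footprints, of which 10 were called higher in OMP-GFP cells, against 6.11% of all genes, and 1 lower, against 17.4%. By library size alone 3 were lower. For other receptors 23.4% were higher and 8.35% lower. By library size alone, all genes gave 461 higher and 2605 lower calls in place of 757 and 2160. The median log2 ratio was 0.55 for the 46 and 0.43 for other receptors, and the sum gave 0.58 (0.45 to 0.70) against 0.42 (0.40 to 0.44). The markers of mature neurons had a median log2 ratio of 0.82 in the same comparison, and all 6 sustentacular and all 6 gland markers were lower.

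Higher in OMP-GFP controls were Olfr94, Olfr119, Olfr123, Olfr129, Olfr132, Olfr133, Olfr134, Olfr135, Olfr136 and Olfr139. Olfr136 went from 1 footprint in Ngn1-GFP to 24 in OMP-GFP cells, a log2 ratio of 5.12 (2.50 to 10.5). Olfr133 went from 10 to 51 (2.88, 1.89 to 4.03), and Olfr135 from 7 to 31 (2.68, 1.47 to 4.11). Olfr139, away from the cluster, went from 20 to 60 (2.12, 1.37 to 2.93). The first 3 of these are MOR256 genes, and 7 of the 14 MOR256 genes tested were called higher. The 1 gene called lower, Olfr90, is also MOR256, with 47 and 10 footprints (-1.70, -2.85 to -0.70).

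In KO mice, 27 had enough footprints, of which 8 were called higher in OMP-GFP cells, against 11.3% of all genes, and 5 lower, against 18.4%. With a minimum of 1 count 8 were lower. For other receptors the shares were 28.4% and 16.6%. By library size alone, all genes gave 923 higher and 2637 lower calls in place of 1325 and 2162. The median log2 ratio was 0.24 for the 46 and 0.33 for other receptors, and the sum gave 0.33 (0.19 to 0.47) against 0.30 (0.27 to 0.32). The direction of that median is not settled: by library size alone it was 0.0099, with a sum of 0.11, and with a minimum of 1 count it was -0.068. Higher were Olfr95, Olfr101, Olfr107, Olfr114, Olfr133, Olfr135, Olfr136 and Olfr139. Olfr107 went from 1 to 39 footprints (5.08, 2.51 to 10.4), and Olfr135 from 4 to 57 (3.62, 2.19 to 5.55). Olfr136 went from 10 to 52 (2.17, 1.18 to 3.31). Lower were Olfr90 (22 to 7, -1.86), Olfr93 (21 to 5, -2.28), Olfr94 (29 to 9, -1.90), Olfr98 (19 to 6, -1.87) and Olfr122 (28 to 15, -1.11).

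The control and KO versions of this comparison share no column. Of 25 genes tested in both, Olfr133, Olfr135, Olfr136 and Olfr139 were called higher in both, 4 of 9 in controls and 4 of 7 in KO mice. They are 16% of the 25, beside 9.8% of other receptors and 2.05% of all genes. Olfr90 was called lower in both, the 1 of controls and 1 of 4 in KO mice, or 4% beside 2.61% of other receptors and 9.04% of all genes. Olfr90 and Olfr136 are the first and the last gene of the chromosome 17 stretch.

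**Figure D5:**
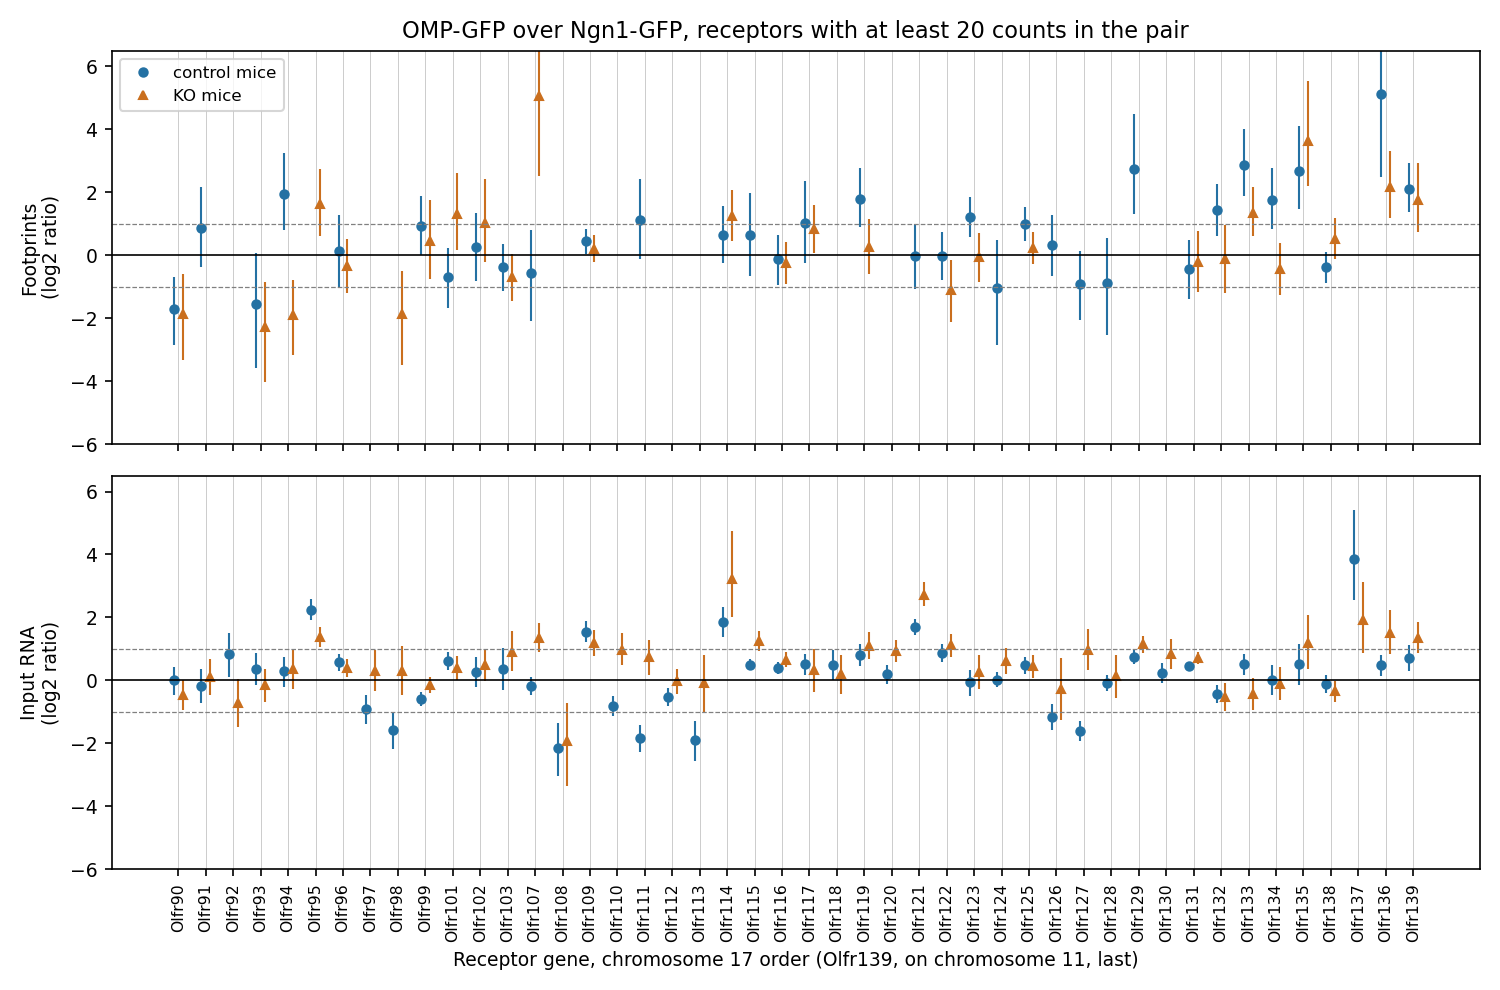
Log2 ratio of OMP-GFP over Ngn1-GFP cells in footprints (top) and input RNA (bottom) for receptors with at least 20 counts in the pair, in control (circles) and KO mice (triangles); lines are exact 95% counting intervals, drawn only to the frame, and dashed lines mark 2-fold. In footprints Olfr90, at the left end, lies below the lower dashed line in both, and Olfr133, Olfr135, Olfr136 and Olfr139, toward the right end, lie above the upper one in both.

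Olfr133 to Olfr136 by number, with Olfr138 and Olfr137 lying between Olfr135 and Olfr136 on the chromosome, were picked after their values were seen and have no test. Their footprints summed to 32, 63, 139 and 193, a log2 ratio of OMP-GFP over Ngn1-GFP of 2.65 (2.09 to 3.25) in controls and 1.41 (0.99 to 1.84) in KO mice. Their RNA summed to 684, 199, 313 and 219 reads, with ratios of 0.40 (0.21 to 0.60) and 0.30 (0.02 to 0.58). As the 4 genes were picked with footprint values in view, their larger ratio in footprints than in RNA is no separate result. Olfr134 went the other way in KO mice, from 29 to 25 footprints (-0.42, -1.26 to 0.40). Olfr138, which was left out of the sum, had footprint ratios of -0.37 in controls and 0.53 in KO mice. The RNA ratio in controls includes the Ngn1-GFP control column that stood apart. The other 13 MOR256 genes gave footprint ratios of 0.19 (-0.05 to 0.44) and -0.16 (-0.44 to 0.12). Without the 4 genes, the summed footprint ratio of the other 42 receptors was 0.41 (0.27 to 0.54) in controls and 0.17 (0.02 to 0.32) in KO mice.

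Olfr133 and Olfr135 are shown as a pair of this run, since their windows are 81.3% identical. Likeness of their coding sequences was not measured, and whether the counting shared their reads was not tested. The ATG is in capitals.
Olfr133: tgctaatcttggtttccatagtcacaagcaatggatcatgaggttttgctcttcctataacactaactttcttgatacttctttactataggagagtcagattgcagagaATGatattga
Olfr135: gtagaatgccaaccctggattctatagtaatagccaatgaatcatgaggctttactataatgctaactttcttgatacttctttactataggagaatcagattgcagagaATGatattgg
These are chr17:38148480-38148599 and chr17:38208137-38208256 of GRCm38.p6, plus strand, and neither printed stretch holds TATAAA or its reverse complement.

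In RNA of controls, all 46 had enough reads, of which 5 were called higher in OMP-GFP cells, against 3.43% of all genes, and 6 lower, against 24.1%. Other receptors were called at 11% and 16.1%. Higher were Olfr95, Olfr109, Olfr114, Olfr121 and Olfr137, and lower were Olfr98, Olfr108, Olfr111, Olfr113, Olfr126 and Olfr127. None of the 46 was called the same way in both footprints and RNA in this pair of columns, whose RNA again includes the Ngn1-GFP control column. With so few calls in either assay, and no share over all genes computed for both, this is a description only. In RNA of KO mice 13 of the 46 were called higher, against 4.77% of all genes, and 1 lower, Olfr108, against 16.4%. Other receptors were called at 19.8% and 6.78%. By family, 5 of 7 MOR263 genes were among the 13, and 3 of 7 were called by library size alone. Here 6 genes were called higher in footprints as well, namely Olfr95, Olfr107, Olfr114, Olfr135, Olfr136 and Olfr139. For this count, too, no share over all genes was computed. Olfr121 went from 69 to 408 RNA reads (2.73, 2.36 to 3.12), and its footprints were 0 and 14, too few to test.

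Ratios differed more from gene to gene than counting alone gives. Over genes with counts in both columns, the standard deviation of the log2 footprint ratios of the 46 was 1.14 for Ngn1-GFP KO over control, 1.16 for OMP-GFP KO over control, and 1.44 and 1.65 for OMP-GFP over Ngn1-GFP in control and KO mice. Counting error accounted for 0.50, 0.46, 0.56 and 0.55. Other receptors had 1.37, 1.18, 1.11 and 1.45. How much of this spread would be found between mice of the same group could not be measured.

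No gene of the lists that act with the receptors was called with the KO. Of 18 genes for receptor signalling and transport, such as Gnal, the olfactory G protein, Adcy3, the adenylyl cyclase, and Rtp2, a receptor transport protein, 0 were called in either KO comparison, in footprints or in RNA. Of 16 genes for receptor choice, such as Lhx2, Ldb1 and the Ebf factors, 0 were called there either. Of all genes, 6.49% were called higher and 10.8% lower in Ngn1-GFP KO footprints, and 7.12% and 8.54% in OMP-GFP KO footprints. In RNA these shares were 4.4% and 11.9%, and 4.4% and 3.89%. Lists this short would hold few calls at such shares, so 0 calls do not show that the KO spares these genes. Median log2 footprint ratios of the signalling list were 0.17 in Ngn1-GFP and 0.13 in OMP-GFP cells, and those of the choice list 0.09 and -0.11. In OMP-GFP over Ngn1-GFP controls, 6 of the 18 signalling genes had higher footprints, against 6.11% of all genes, and 1, Gnas, lower, against 17.4%. Lhx2, a factor at receptor gene enhancers, had 1737, 1116, 356 and 442 footprints, and was called lower in OMP-GFP cells in controls (-1.76, -1.92 to -1.59) and KO mice (-1.55, -1.71 to -1.39). Ubd, H2-M3 and H2-M2, inside the receptor stretch, had 0 to 2 footprints in each column, too few to test.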

How the data were processed

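Per the submitters' processing notes, FastQC, cutadapt, STAR and mm10 were used, without versions. Per the file headers, the authors deposited read counts over coding sequences for footprints and input RNA, coding length, footprint RPKM, RNA TPM and a translational efficiency ratio, in 24 columns for 4 groups. The sources used here do not say how the columns arose from the 8 footprint libraries. The deposited RPKM and TPM were used for levels, and the authors' ratio was not used.

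Counts were scaled by TMM (edgeR 4.0.16, R 4.3.3) over genes kept by filterByExpr (13479 in footprints, 16388 in RNA). Ratios, exact conditional binomial 95% intervals and calls, checked on simulated counts, were computed in Python 3.11.15 with scipy 1.17.1. Footprints per RNA read have a log-normal counting interval. As alternatives, scaling used the size factors of DESeq2 1.42.0, the plain column totals, or TMM with receptor, ribosomal and mitochondrial genes removed, and count minimums were varied. Every receptor of the rule could be named; values in full were meant for the 8 with most footprints, up to 4 calls a direction in each footprint comparison, and the extremes of footprints per RNA read. Other genes named with values were chosen after their values were seen. The receptors and gene lists were chosen with earlier results of these data known. Sequences are RefSeq's (GRCm38.p6); all 46 symbols matched.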

Additional observations from a re-analysis of the deposited data

Results flagged for a closer look

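Olfr94, a MOR256 receptor, moved in opposite directions in the populations. Its footprints were 9 in Ngn1-GFP control, 29 in Ngn1-GFP KO, 24 in OMP-GFP control and 9 in OMP-GFP KO. The log2 ratio of KO over control was 2.31 in Ngn1-GFP and -1.54 in OMP-GFP cells, and that of OMP-GFP over Ngn1-GFP was 1.95 in control and -1.90 in KO mice. All 4 were called, each with a counting interval that excluded no difference. These are the same 4 counts seen from both sides. RNA reads were 128, 43, 54 and 49, and RNA was called in none of these 4 comparisons. The difference between populations was not tested across mice, since there is 1 column per group.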

How the results depend on the processing

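No paired analysis was possible because each group has a single column in either assay, and leaving out libraries was not run for the same reason. No result changed sign of a call. With TMM computed without receptor, ribosomal and mitochondrial genes, all 32 summary results stayed within 1.5-fold or 0.1 on the log2 scale. DESeq2 size factors gave 5 receptors higher in OMP-GFP KO footprints in place of 3. Library size alone moved the median of all genes by -0.21 and -0.23 (footprints, OMP-GFP over Ngn1-GFP, control and KO) and by -0.12 (RNA, KO). It gave 3 receptors lower in OMP-GFP control footprints, median footprint ratios of 0.34 and 0.0099, summed footprint ratios of 0.36 and 0.11, summed RNA ratios of -0.28 (Ngn1-GFP KO over control), 0.12 and 0.55 (OMP-GFP over Ngn1-GFP, control and KO), a median RNA ratio of 0.34 in KO mice, and 0.99 footprints per RNA read in Ngn1-GFP control. Of the calls of single receptors, those lost were Olfr138 in Ngn1-GFP KO footprints (DESeq2 size factors) and, by library size alone, 3 of OMP-GFP over Ngn1-GFP in KO mice, Olfr101 in footprints and Olfr119 and Olfr122 in RNA.

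Few receptors have many footprints. At a minimum of 100 counts only 3, 4, 3 and 2 receptors could be tested in footprints. Calls were then 0 higher and 1 lower in Ngn1-GFP KO, and 0 and 0 in each of the other footprint comparisons, with a median of 0.44 in controls. RNA gave 0 higher in OMP-GFP KO, and 0 lower with a median of 0.64 for OMP-GFP over Ngn1-GFP in KO mice. Medians of footprints per RNA read became 0.79, 1.23 and 0.90 in Ngn1-GFP control, Ngn1-GFP KO and OMP-GFP control. With a minimum of 1 count, receptors lower were 7 (Ngn1-GFP KO), 9 (OMP-GFP KO) and 8 (OMP-GFP over Ngn1-GFP in KO mice, median -0.068). Without the most abundant receptor of a column, the shares of receptor footprints were 2.28%, 2.27%, 2.56% and 2.35%, and of RNA 3.60%, 3.20%, 3.60% and 3.77%. With at least 10 footprints, 24 receptors were detected in Ngn1-GFP KO.

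Over all genes, a minimum of 100 counts took footprint calls (higher, lower) from 815 and 1361 to 213 and 439, from 795 and 953 to 281 and 271, from 757 and 2160 to 374 and 853, and from 1325 and 2162 to 646 and 761. It took RNA calls from 632 and 558 to 207 and 177 (OMP-GFP KO), from 719 and 2472 to 442 and 1430 (KO populations), and higher ones in Ngn1-GFP KO from 728 to 368. A minimum of 1 count gave 1238 in place of 815.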
